A study of Mus musculus with 6 samples.

Results

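The genes for the proteins of the cytosolic ribosome were followed in mesenchymal stem cells of mouse bone marrow that had been induced to form bone, with or without melanin concentration hormone (MCH). Members were chosen by symbol: Rps or Rpsa names for the small (40S) subunit and Rpl or Rplp names for the large (60S) subunit, with pseudogene names left out. The rule took 79 of the 19353 gene rows, 30 of the 40S and 49 of the 60S subunit, on 19 chromosomes. Of these, 78 had enough counts to be tested among 13662 genes. Rpl3l, a striated-muscle paralog of Rpl3, was not tested, with 1 to 10 counts per library.

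All 6 libraries came from purified primary bone marrow cells of wild-type (WT) genotype, cultured in medium with 10% FBS, 100 nM dexamethasone, 50 µM ascorbic acid and 10 mM β-glycerophosphate. The MCH group (3 libraries) also received 0.5 µM MCH, a hypothalamic peptide hormone, and the Control group (3 libraries) did not. The day of induction is 9 in the titles and 8 in the design text. The columns taken as Control carry no group name, only the absence of MCH, and every direction below rests on that. Separate animals or cultures are not named for the libraries of a group, so the p-values reflect only how far these libraries differ, which may be technical.

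Polyadenylated RNA was sequenced to between 16521980 and 18803949 counted reads per library. Across all genes tested, 497 were higher with MCH (3.64%) and 738 lower (5.4%) at an adjusted p under 0.05 (edgeR quasi-likelihood test, Benjamini-Hochberg). All 12 mesenchymal stromal markers, among them Col1a1, Col1a2 and Pdgfrb, were detected, and 7 of them fell with MCH while none rose. Their summed level was 9140 to 10500 CPM (counts scaled to library size) with MCH and 13700 to 15100 CPM in Control. Leukocyte and macrophage markers summed to 140 to 177 CPM with MCH and 168 to 171 CPM in Control. In that list 1 of 5 tested members, Cd14, fell (-0.43 in log2 units, adjusted p = 0.00678, edgeR) and none rose. It was also the most abundant, at 90.23 to 96.99 CPM with MCH and 124.9 to 131.8 CPM in Control. The other 4 (Csf1r, Ctss, Lyz2 and Cd68) had values of 0.39 to 1.54 that did not pass the test, and the median of the 5 was 0.47. MCH replicate 3 stood apart in these markers, with 92 counts of Ctss beside 5 to 23 in the other libraries, 50 of Adgre1 beside 0 to 11, and 31 of C1qb beside 0 to 9. The leukocyte marker Ptprc had 0 to 2 counts in every library. Endothelial markers stayed under 5 CPM in sum (2.43 to 4.88 CPM with MCH, 3.15 to 4.27 CPM in Control), and the erythroid list had a single row, at 0 to 0.106 CPM. Of 3 lymphocyte markers, only Cd3e was tested, and it rose, from between 2.4 and 3.19 CPM in Control to between 7.33 and 8.88 CPM with MCH (adjusted p = 0.00346, edgeR). In bulk samples, fewer cells of a type and less RNA per cell cannot be told apart, and the part of these shifts in the results below was not tested.

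As background, each ribosome carries a single copy of most of these proteins, and cells make the 40S and 60S sets in matched amounts. Their messages are short, abundant and stable, and most begin at the start site with a run of pyrimidines (the terminal oligopyrimidine, or TOP, element), through which mTOR and Larp1 control translation. Transcript level is therefore only a partial guide to how much ribosomal protein is made. The same abundance has left the mouse genome with many processed pseudogenes, intronless copies of the messages, so a short read from a ribosomal protein message can often be placed at more than 1 locus.

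Start-site sequences are shown because a pyrimidine word found in some of them is more frequent at member start sites than at all start sites, and the name rule did not use it. RefSeq promoters (GRCm38.p6) matched 59 of the 79 members, with 70 start sites. Each line gives the 25 bases before and the 25 bases from the annotated start, 5′ to 3′ on the gene's strand, with each CTTTC in capitals.
Rps10, chr17:27635220-27635269, minus strand: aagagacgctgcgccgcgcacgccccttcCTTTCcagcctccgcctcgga
Rps27, chr3:90213624-90213673, minus strand: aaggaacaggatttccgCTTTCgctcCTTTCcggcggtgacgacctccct
Rplp2, chr7:141447626-141447675, plus strand: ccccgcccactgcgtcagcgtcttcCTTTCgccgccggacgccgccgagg
Rpl35a, chr16:33056457-33056506, plus strand: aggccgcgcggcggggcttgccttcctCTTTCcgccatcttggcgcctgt
Rpl12, chr2:32961687-32961736, plus strand: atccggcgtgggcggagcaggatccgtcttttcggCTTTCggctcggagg
Rps6, chr4:86857343-86857392, minus strand: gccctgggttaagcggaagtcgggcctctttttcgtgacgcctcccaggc
Rpl27, chr11:101442220-101442269, plus strand: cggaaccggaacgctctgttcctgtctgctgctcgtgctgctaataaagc
Rps23, chr13:90923097-90923146, plus strand: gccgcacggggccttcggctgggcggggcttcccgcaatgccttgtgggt
The pyrimidine word CTTTC lay within this window on the gene's strand at 25.7% of member start sites and at 6.75% of all 32851 start sites. On either strand the shares were 32.9% and 12.5%, with 23.1% at 40S and 38.6% at 60S sites. CCGGAAG is a longer word that holds the GGAA core bound by ETS-family factors. The whole word was found on either strand of the 300-base promoter at 34.3% of member sites (38.5% for 40S, 31.8% for 60S) and 8.86% of all sites. The words can share a base, so the shares of sites with each are not separate counts. Both words were chosen after the sequences had been seen, and a match is a description of letters. The windows of Rps6, Rpl27 and Rps23 hold no CTTTC. The word is not the TOP element itself, and its absence does not show that a TOP element is missing. The Rps6 window has an unbroken run of c and t at its annotated start.

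Copies of the messages were found by aligning each member's longest annotated coding sequence to the GENCODE M21 transcripts. A copy here is another gene at 90% identity or more over at least 80% of the coding length. Of the 79 members, 72 had such a copy and 7 had none (among them Rps3, Rps19, Rpl3l, Rpl8 and Rpl41). The number per member ran from 0 to 77, with 945 in all. Only 54 of these copies were rows of the deposited table, belonging to 35 members (11 of the 40S and 24 of the 60S), and 891 were not among the rows used here.

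The following coding stretches, 5′ to 3′, show how close a member and its copy can be. Capitals mark every base that differs between the pair within the stretch.
Rpl23a: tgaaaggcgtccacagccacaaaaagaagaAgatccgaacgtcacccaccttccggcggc
Rpl23a-ps3: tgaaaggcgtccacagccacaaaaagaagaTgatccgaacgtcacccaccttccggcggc
Rps18: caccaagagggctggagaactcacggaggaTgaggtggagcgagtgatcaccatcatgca
Gm10260: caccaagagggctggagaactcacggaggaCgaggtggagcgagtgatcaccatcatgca
Rps7: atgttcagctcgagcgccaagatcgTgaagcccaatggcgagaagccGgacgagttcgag
Gm6472: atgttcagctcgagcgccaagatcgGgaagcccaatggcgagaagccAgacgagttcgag
Rpl5: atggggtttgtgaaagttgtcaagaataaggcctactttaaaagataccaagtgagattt
Gm15500: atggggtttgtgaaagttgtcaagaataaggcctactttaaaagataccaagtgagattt
Over the whole coding sequence, Rpl23a and Rpl23a-ps3 differ at 1 of 468 bases and Rps18 and Gm10260 at 4 of 456. Rps7 and Gm6472 differ at 3 of 582 bases, and Rpl5 and Gm15500 at 0 of 891. A read that covers no differing base cannot be given to either gene by its sequence, and how the authors counted such reads is not given in the sources used here.

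Deposited levels of the members, in FPKM (read counts scaled to gene length and library depth), spanned a 5730-fold range among those tested. The gene lengths behind the FPKM are not given, and they affect the ranking of members. Rpl9 had 139 to 163 counts per library and a coding length of 576 bases, Rpl29 24 to 46 counts and 480 bases. Yet Rpl9 had the lower FPKM (0.785 beside 1.56), so levels in FPKM may not compare members evenly. The median over members was 171 FPKM for the 40S and 56.2 FPKM for the 60S subunit. Above 1000 FPKM were 6 members of each subunit, and under 20 FPKM were 8 members of the 40S and 17 of the 60S.

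Among the most abundant 40S rows were Rps15 (2930 FPKM), Rpsa, the laminin-receptor homolog (2206 FPKM), Rps26 (1934 FPKM), Rps24 (1788 FPKM) and Rps4x, the X-linked form of S4 (1532 FPKM). On the 60S side these included the stalk protein Rplp1 (4504 FPKM), Rpl8 (3400 FPKM), Rpl4 (2049 FPKM), Rpl13a (1976 FPKM) and Rpl32 (1506 FPKM). At the other end of those tested, Rpl9 was listed at 0.785 FPKM, Rps13 at 0.804 FPKM, Rpl29 at 1.56 FPKM, Rpl26 at 2 FPKM and Rps6, the S6 kinase substrate, at 2.3 FPKM.

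**Figure D1:**
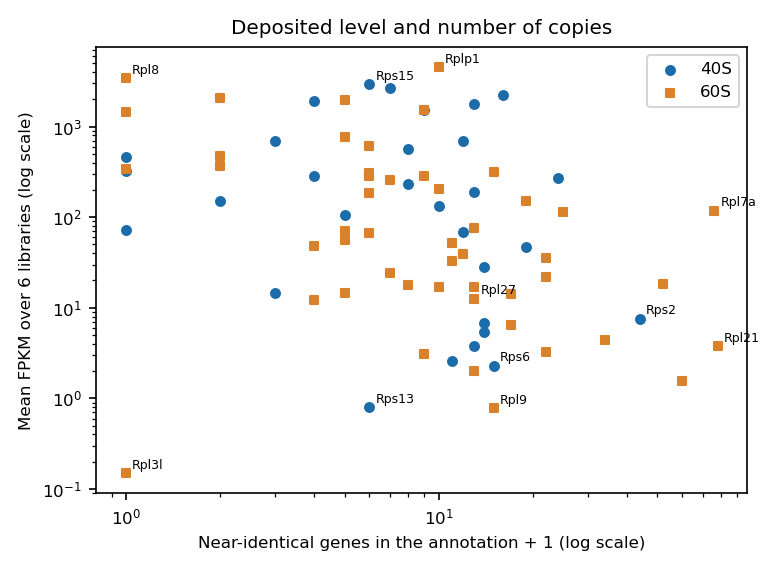
Mean deposited level over the 6 libraries (FPKM, log scale) against the number of near-identical genes in the annotation plus 1 (log scale), 1 point per member. Rpl8 has no copy and 3400 FPKM; the 25 members under 20 FPKM have a median of 12 copies and the others a median of 6.

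Members with low values had more copies in the annotation: the 25 members under 20 FPKM had a median of 12 and the other members a median of 6. Across the 79 members the rank correlation of level and number of copies was -0.431, a description over genes that share the same libraries. Of the 25 low members, 10 had over 50% of the counts pooled over the member and its copies in the copies. Another 10 had no copy among the table's rows, among them Rps6, Rps10, Rps13, Rps29, Rpl26, Rpl28 and Rpl30.

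For 16 members, 5 of the 40S and 11 of the 60S, the gene's own row held under 50% of those pooled counts. Rpl23a held 0.643%, Rps27 1.19%, Rps18 1.26%, Rpl9 1.52%, Rps2 2.13% and Rpl27 4%. The Rps18 row had 438 to 562 counts per library, whereas Gm10260 had 32631 to 40244. The Rpl23a row had 80 to 125 counts and Rpl23a-ps3 had 14338 to 20225. Copies at such levels are Gm10260 (4666 FPKM), Gm8730, a copy of Rplp0 (2801 FPKM), Gm10275 of Rpl12 (2109 FPKM), Rpl23a-ps3 (1844 FPKM), Rps27rt of Rps27 (1672 FPKM), Rpl27-ps3 (1264 FPKM) and Gm15500 of Rpl5 (1113 FPKM). Whether these reads came from the member or from the copy cannot be told apart in these counts, so the levels of these 16 members are uncertain. Members whose copies are not rows used here, such as Rps6 (14 copies) and Rps13 (5 copies), cannot be checked in this way. Their levels may be uncertain as well.

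**Figure D2:**
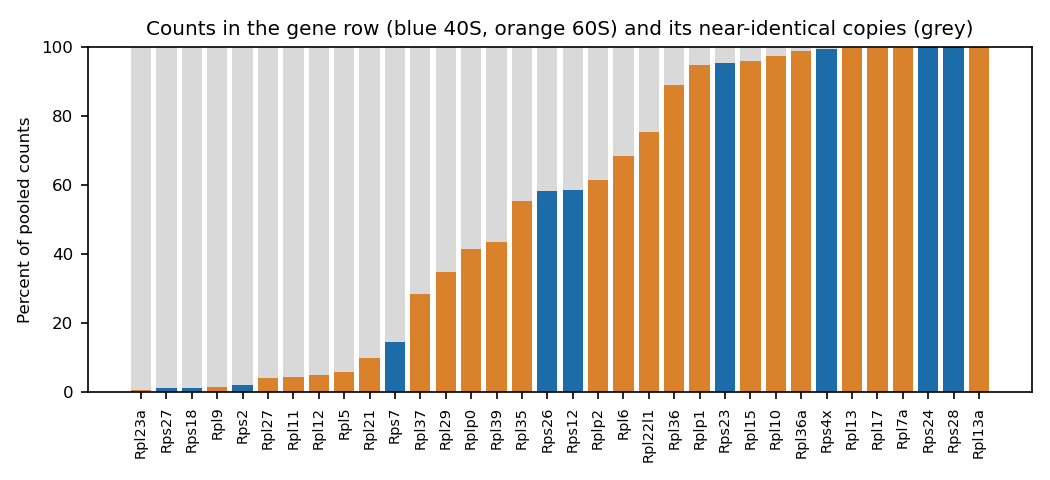
Percent of the counts pooled over a member and its near-identical copies that lie in the member's own row (blue 40S, orange 60S) and in the copies (grey), summed over the 6 libraries, for 34 of the 35 members with a copy in the table. Values rise from 0.643% for Rpl23a, and 15 of the members drawn lie under 50%.

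As a share of all counted reads, 40S rows took 2.28%, 2.764% and 2.618% in MCH replicates 1, 2 and 3, and 2.5%, 2.134% and 2.296% in Control replicates 1, 2 and 3. The 60S rows took 2.53%, 3.115% and 2.896% with MCH and 2.793%, 2.463% and 2.523% in Control. MCH replicate 1 lay inside the Control range for both subunits and Control replicate 1 lay above it, so the groups overlapped. The means were 2.554% ± 0.248 against 2.31% ± 0.183 for the 40S and 2.847% ± 0.296 against 2.593% ± 0.176 for the 60S (SD, n = 3 each).

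All members together took 5.401% ± 0.543 with MCH and 4.903% ± 0.355 in Control (SD, n = 3), a difference of 0.498 percentage points. It was 0.793 points without MCH replicate 1 and 0.259 points without MCH replicate 2. Wilson 95% intervals of a single library's share were at most 0.022 points wide and cover counting error only, so the spread between libraries of a group far exceeded it. The ratio of 40S to 60S counts stayed between 0.8664 and 0.9102 in the 6 libraries (0.8975 ± 0.00886 with MCH, 0.8905 ± 0.0222 in Control). The 2 subunits thus moved together from library to library.

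Counts in the copies followed those of the members. For each 100 member counts, the copies held 27.11 to 29.64 counts for the 40S and 48.79 to 49.95 counts for the 60S, and the groups overlapped in both. Copies of 40S members took 0.6326% to 0.7492% of all counts and copies of 60S members 1.202% to 1.527%.

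**Figure D3:**
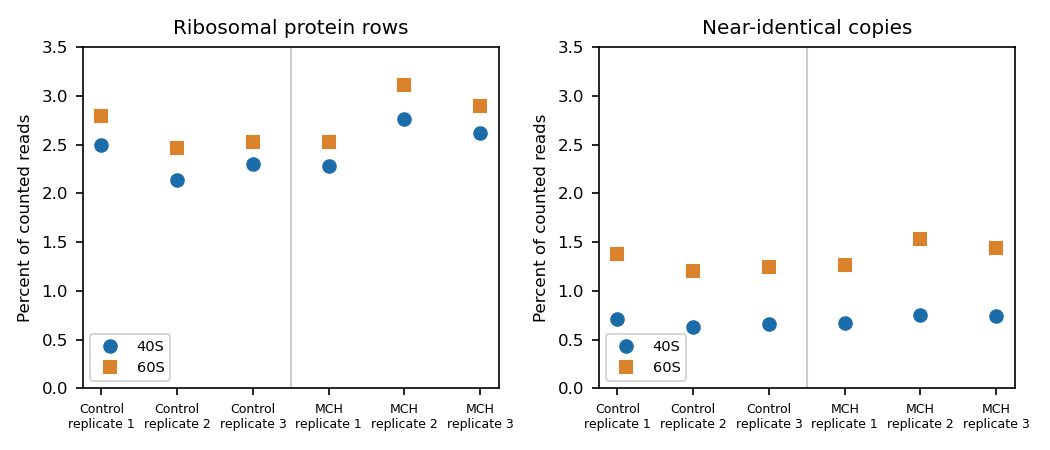
Percent of counted reads in ribosomal protein rows (left) and in their near-identical copies (right) for each of the 6 libraries, 40S as circles and 60S as squares. Both subunits are highest in MCH replicate 2 (2.764% and 3.115%) and lowest in Control replicate 2 (2.134% and 2.463%).

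The comparison of MCH with Control asks whether the peptide changed the ribosomal protein messages of cells under osteogenic induction. Of the 78 tested members 1, Rpl27, rose and none fell at an adjusted p under 0.05, where 3.64% of all genes rose and 5.4% fell (edgeR quasi-likelihood test, Benjamini-Hochberg over all genes). The member that rose is 1 of 48 in the 60S and there is none among 30 in the 40S. At an unadjusted p under 0.05, 11 members were higher (14.1%) and 0 were lower, beside 12.9% of all genes higher and 13.8% lower at that level. With DESeq2, 2 members were higher and 0 lower, beside 5.61% and 6.8% of genes. With length and GC offsets 2 were higher (4.55% of genes), and with pseudogenes named for their parents added 0 were (3.67% of genes).

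The members' fold changes nonetheless lay mostly on the same side of 0. On the log2 scale, MCH minus Control, the median was 0.16 for the 40S and 0.18 for the 60S, beside 0.002 for all genes tested. Values above 0 were found for 28 of 30 members of the 40S and 48 of 48 of the 60S, 97.4% of all members, beside 50.3% of all genes. Under upper-quartile scaling Rps20 and Rps28 passed below 0 and 74 of 78 members stayed above it, and with length and GC offsets 70 did. Without MCH replicate 2 the count was 65, and without Control replicate 2 it was 66. No p is given for the list, since the genes share libraries and the members were chosen together.

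The shift rested on some libraries more than others. MCH replicate 1 was the lowest of the MCH libraries in 69 of 78 members and lay within or below the Control range in 65. MCH replicate 2 lay above all Control libraries in 63 members and MCH replicate 3 in 51. All 3 MCH libraries exceeded all 3 Control libraries for 9 members (11.5%; 3 of the 40S, 6 of the 60S), beside 16.1% of all genes. For 0 of the 78 tested members all MCH libraries lay below, beside 16.6% of all genes. Without MCH replicate 1 the medians were 0.25 for the 40S and 0.28 for the 60S. Without MCH replicate 2 they were 0.12 and 0.1, and without Control replicate 2 they were 0.089 and 0.12. Without MCH replicate 3, which stood apart in macrophage markers, they were 0.14 and 0.155. Library by library, the median log2 CPM of the tested members relative to the Control mean was -0.027, 0.29 and 0.21 in the MCH libraries and 0.13, -0.11 and -0.017 in Control.

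**Figure D4:**
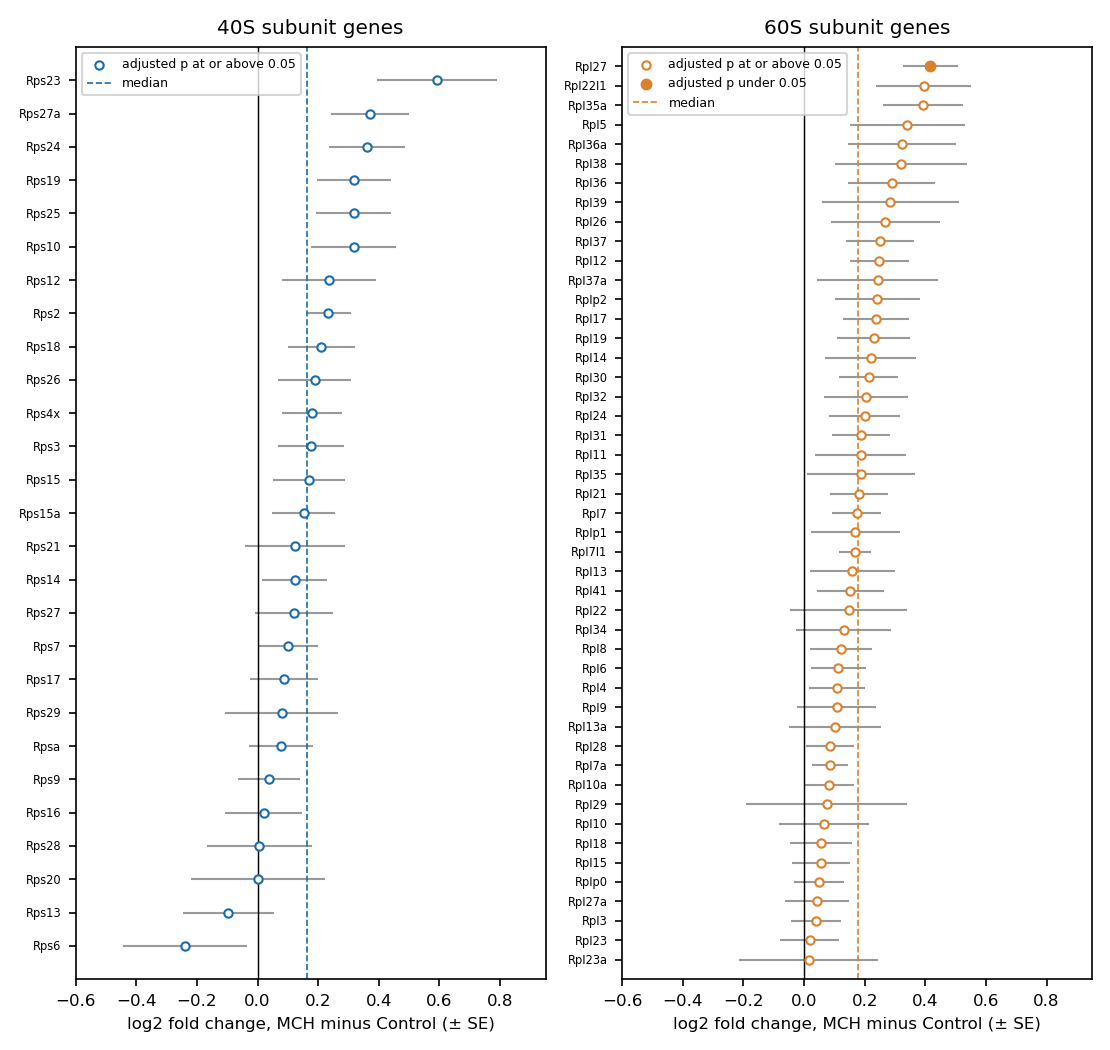
Log2 fold change with its standard error for 27 of the 30 tested 40S members (left) and 47 of the 48 tested 60S members (right), with the median over all tested members of the subunit dashed. Filled points mark an adjusted p under 0.05, here Rpl27 alone, and only Rps6 and Rps13 lie below 0.

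Among the measures of RNA quality, 2 nuclear-retained RNAs fell with MCH past the threshold. Malat1, a nuclear-retained RNA, was at 558.3, 510.8 and 498.6 CPM with MCH and 950.5, 902 and 659.9 CPM in Control, and fell by 0.68 in log2 units (SE 0.14, adjusted p = 0.0275, edgeR). Neat1, another, was at 1304 to 1367 CPM with MCH and 1803 to 2022 CPM in Control and fell by 0.55 (SE 0.073, adjusted p = 0.00556, edgeR). Of the 4 tested RNAs in that list, these 2 fell and none rose. Kcnq1ot1 had -0.40 (SE 0.23, adjusted p = 0.308, edgeR). Mir17hg lay the other way, at 18.62 to 20.36 CPM with MCH and 13.03 to 17.16 CPM in Control (0.35, SE 0.12, adjusted p = 0.113, edgeR). Its groups did not overlap, though it did not pass the threshold. Mitochondrially encoded genes took 3.856% ± 0.018 of counts with MCH and 3.763% ± 0.26 in Control (SD, n = 3), and the groups overlapped. With offsets for gene length and GC content the median of the members was 0.11 for the 40S and 0.14 for the 60S. The part of RNA quality in the members' shift was not tested.

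Rpl27, a 60S protein linked to Diamond-Blackfan anaemia and encoded at chr11:101442298-101445529 (GRCm38), had 474, 514 and 505 counts in the MCH libraries and 366, 371 and 390 in Control. In CPM these were 27.81, 29 and 29.29 against 22.49, 19.41 and 22.64, so that the groups did not overlap. The log2 fold change was 0.42 (SE 0.091, adjusted p = 0.0318, edgeR). Its row is a small part of the reads with this sequence. Rpl27-ps3, an annotated processed pseudogene identical to the Rpl27 coding sequence, had 9785, 13032 and 11599 counts with MCH and 9313, 9499 and 9655 in Control. That row alone had a log2 fold change of 0.28 (SE 0.10, adjusted p = 0.128, edgeR).

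With both rows summed, the value for Rpl27 was 0.29 (SE 0.10) and the call was lost (adjusted p = 0.117, edgeR). Leaving out single libraries kept the call only without MCH replicate 1 (adjusted p = 0.0396, edgeR). Without any of the other 5 libraries it was lost, at adjusted p = 0.0581 without Control replicate 1 up to 0.121 without MCH replicate 3. The fold change itself stayed between 0.35 and 0.46 in these 6 fits, and over all genes 65 to 285 were higher without any of those 5 libraries, beside 497 with all 6. The authors' deposited table marked 0 members as UP or DOWN and gave Rpl27 a q-value of 0.342.

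In the 40S subunit, the highest fold change was that of Rps23, a protein of the decoding centre, at 64, 100 and 90 counts with MCH and 51, 58 and 61 in Control (log2 0.59, SE 0.20, adjusted p = 0.106, edgeR). The groups did not overlap, but the counts were low. Rps27a, made as a fusion with ubiquitin, was at 86.54, 89.94 and 88.35 CPM with MCH and 63.35, 58.12 and 83.29 CPM in Control (0.37, SE 0.13, adjusted p = 0.115, edgeR). Control replicate 3 stood near the MCH libraries, and without it the value was 0.54 (adjusted p = 0.0202, edgeR). Rps24, abundant and linked to Diamond-Blackfan anaemia, was at 1402, 1895 and 1784 CPM against 1455, 1217 and 1284 CPM (0.36, SE 0.12, adjusted p = 0.111, edgeR). Here MCH replicate 1 fell within the Control range.

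Without MCH replicate 1, 5 members passed the threshold (among them Rps23, Rps24, Rpl12 and Rpl27), beside 5.19% of genes higher. Without Control replicate 3 there were 2, Rps27a and Rpl36a, beside 0.765% of genes. There were 0 without MCH replicate 2 (0.834% of genes), MCH replicate 3 (0.468%), Control replicate 1 (2.06%) or Control replicate 2 (0.795%). Which members are called thus turned on the library left out.

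The lowest value of the 40S was that of Rps6, at 74, 111 and 85 counts with MCH and 92, 100 and 129 in Control, a log2 fold change of -0.24 (SE 0.20, adjusted p = 0.498, edgeR). The groups overlapped. Its 2.3 FPKM is far below the level of most 40S rows, and the annotation holds 14 copies of it that are not rows used here. Rps13 had -0.096 (SE 0.15), Rps20 0.001 (SE 0.22) and Rps28 0.006 (SE 0.17), all far from the threshold.

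In the 60S subunit, Rpl22l1, a paralog of Rpl22 with its own regulatory role, was at 51.39, 69.23 and 64.16 CPM with MCH and 55.73, 45.78 and 39.06 CPM in Control (0.40, SE 0.16, adjusted p = 0.164, edgeR). Rpl35a was at 16.43, 20.93 and 15.66 CPM against 13.21, 12.97 and 14.16 CPM (0.39, SE 0.13, adjusted p = 0.106, edgeR). Its groups did not overlap, those of Rpl22l1 did. Rpl7l1, a paralog of Rpl7 that acts in ribosome assembly, had the smallest SE of the tested members. It was at 189, 198.9 and 196.7 CPM with MCH and 175.2, 175.1 and 170.1 CPM in Control, a small difference of 0.17 with an SE of 0.053 (adjusted p = 0.0903, edgeR).

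Rpl5 and Rpl11 bind 5S RNA together and can hold back Mdm2 when assembly fails. Rpl5 was at 116.5, 174.5 and 142.4 CPM against 132, 117.6 and 92.46 CPM (0.34, SE 0.19, adjusted p = 0.312, edgeR), and Rpl11 at 12.38, 16.08 and 16.53 CPM against 14.38, 11.35 and 13.81 CPM (0.19, SE 0.15). Neither separated the groups. Their rows held 5.72% and 4.24% of the counts pooled with their copies.

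The stalk proteins recruit elongation factors to the large subunit. Rplp1 was at 1927, 2762 and 2412 CPM with MCH and 2364, 1838 and 2113 CPM in Control (0.17, SE 0.15). Rplp2 had 0.24 (SE 0.14) and Rplp0 0.049 (SE 0.083), none past the threshold. The lowest values of the 60S were those of Rpl23a (0.015, SE 0.23), Rpl23 (0.018, SE 0.096), Rpl3 (0.04) and Rpl27a (0.043, SE 0.10). Rpl23a, Rpl29 and Rpl36a had the widest spread within a group. For Rpl36a, Control replicates 1 and 2 at 42.83 and 36.57 CPM stood below Control replicate 3 at 60.54 CPM, while the MCH libraries were at 56.44 to 59.34 CPM.

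Adding the counts of all near-identical copies in the table moved single members more than the sets. The median became 0.14 for the 40S and 0.17 for the 60S, and 0 members were higher, beside 3.71% of genes. Rpl23a went from 0.015 to 0.22 and Rpl29 from 0.075 to 0.30. In the other direction, Rps2 went from 0.23 to 0.063, Rps12 from 0.24 to 0.085 and Rpl37 from 0.25 to 0.036. For these 5 members the size of the difference depends on where reads shared with copies were placed. For members without any copy by this rule, such as Rpl8 (0.12, SE 0.10), Rps19 (0.32, SE 0.12) and Rpl41 (0.15, SE 0.11), nothing was added. The rule saw annotated transcripts only and used the longest coding sequence, 636 bases for Rps19 and 138 for Rpl41. A copy of a shorter form could thus be missed, and shared reads are not excluded for them.

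**Figure D5:**
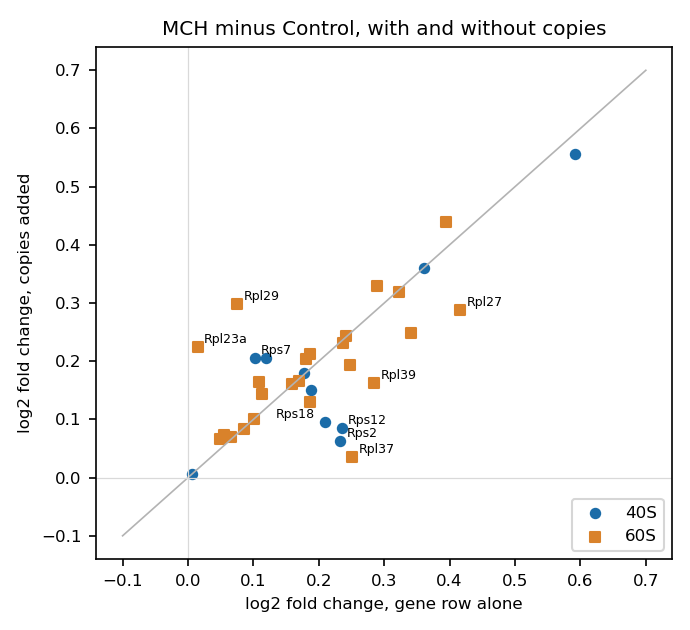
Log2 fold change (MCH minus Control) of 34 of the 35 members with a copy in the table, from the gene row alone (x axis) and after adding the counts of its copies (y axis), with the line of equality. Rpl27 falls from 0.42 to 0.29, and Rpl23a goes from 0.015 to 0.22.

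The 8 ribosomal protein genes whose names fall outside the rule, among them Fau, Rack1 and Rps3a1, had a median of 0.19, with 8 above 0 and none called. Among all genes tested, 3.64% rose, 5.4% fell and 50.3% were above 0. Rps27rt is in this list and is also the copy of Rps27 named above, so the list is not fully separate from the copies. Of the 19 members linked to Diamond-Blackfan anaemia in patients, Rpl27 was called, all 19 were above 0 and the median was 0.19. The count of 1 called is near the 3.64% of all genes that rose, and 97.4% of all tested members were above 0. The Diamond-Blackfan list lies within the members and is no separate evidence.

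Chaperones and escorts accompany single ribosomal proteins to the assembling subunit, and not all of those listed here do only this. Of the 10 tested, 2 rose, none fell, and 10 were above 0 (median 0.28). Nap1l1 is also counted in the list of messages with a TOP element below. Of all genes tested, 3.64% rose, 5.4% fell and 50.3% were above 0, and their median was 0.002. Heatr3, the escort of the Rpl5 and Rpl11 pair, was at 85.01, 83.22 and 92.41 CPM with MCH and 67.65, 66.6 and 66.81 CPM in Control (0.37, SE 0.066, adjusted p = 0.0159, edgeR). Tsr2, the escort of Rps26, was at 48.34, 50.5 and 47.57 CPM against 36.38, 37.72 and 40.34 CPM (0.36, SE 0.075, adjusted p = 0.0291, edgeR). In both genes MCH replicate 1 stood with the other MCH libraries. These 2 are the genes that passed the test, and Rpl27, the called member, had close MCH libraries too. In every other gene of the list MCH replicate 1 was the lowest MCH library, as in 69 of 78 members.

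Of 22 tested initiation factors, 3 rose and none fell, with 20 above 0 and a median of 0.23, beside 3.64% higher, 5.4% lower and 50.3% above 0 among all genes. They were Eif1ax (0.43, SE 0.089, adjusted p = 0.0272, edgeR), Eif4h (0.33, SE 0.061, adjusted p = 0.0192) and Eif2s1, a subunit of the factor that brings the initiator tRNA (0.24, SE 0.059, adjusted p = 0.0489). Of 20 elongation factors, further initiation factors and other messages with a TOP element, 1 rose and none fell. That count is near the 3.64% of all genes that rose. The 1 that rose was Npm1, a nucleolar chaperone (0.29, SE 0.063, adjusted p = 0.0306, edgeR). The median of that list was 0.012, with 12 of 20 above 0, and its most abundant members Eef1a1 and Eef2 had 0.016 (SE 0.076) and -0.17 (SE 0.077). Its initiation factors are not among the 22 above. Eif3a, Eif3h, Eif4a2 and Eif4b lay below 0 (-0.121, -0.022, -0.093 and -0.003). Eif3e, Eif3f, Eif3k and Eif3l lay above 0 (0.263, 0.057, 0.129 and 0.009). The values for initiation factors thus depend on how the lists were split.

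The genes that control ribosomal protein messages, among them Mtor, Larp1 and Myc, had a median of -0.11 over 15 tested, with 6 above 0 and none called. Eif4ebp1, a translation repressor that mTOR inactivates, was the most abundant of them and had 0.21 (SE 0.12). The 8 tested genes of ribosomal stress and p53 had a median of 0.043 and none was called, with Cdkn1a, a cell-cycle inhibitor, at 0.070 (SE 0.069).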

How the data were processed

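Per the file headers, the authors' table holds for each gene the counts of reads (whole numbers), the FPKM of each library and their own p-values and q-values. Per the submitters' processing notes, the build is GRCm38 (mm10). The VAHTS Universal V6 kit was used on 1.5 µg of Trizol-extracted RNA, per the labels' protocols. The sources used here do not name the aligner, the counting rule, the strand setting or the authors' test. How reads placed at several loci were counted is therefore unknown, and it can move counts between a member and its copies.

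The main test was edgeR's robust quasi-likelihood fit on group (edgeR 4.0.16, R 4.3.3; TMM; filterByExpr at a count of 10 and a total of 15; two-sided; Benjamini-Hochberg at 0.05 over 13662 genes). CPM are TMM scaled, except the summed CPM of marker lists, which are scaled to the total counts of each library. SEs were derived from the coefficient and its F statistic. The common biological coefficient of variation was 0.174. The fit was tested on simulated data. Copies were found with blastn 2.17.0 (90% identity over 80% of the coding length), leaving out 2 rows that overlap a member. Of the 79 members, 76 had a locus within 1000 bases of the GENCODE M21 gene.

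Tried beside it were DESeq2 1.42.0, limma-voom and limma on log2(FPKM + 1) (limma 3.58.1), upper-quartile and RLE scaling, a fit that is not robust, other filters, length and GC offsets, a replicate block, scaling without the members, shares of counts without the most abundant or the mitochondrially encoded genes, pseudogenes by name added to their parents, and leaving out each library. Adding all near-identical copies was chosen after seeing the data. Members named singly are those past the threshold, the 6 most abundant and the 4 highest and 4 lowest fold changes per subunit, paralogs, stalk and 5S-binding proteins, Rps27a, Rps6, those moved most by copies and the 3 with the widest spread. Others named for a non-overlapping group, a copy or a lack of copies were chosen after their values were seen. Some members that the naming rule takes are not reported here and are not drawn, but are counted in every summary. The members and gene lists were chosen with earlier results of these data known.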

Additional observations from a re-analysis of the deposited data

How the results depend on the processing

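The medians of the 40S, the 60S and all members and the differences in their share of counts stayed above 0 under every alternative run. Leaving out each library gave medians of 0.089 to 0.248 for the 40S and 0.102 to 0.281 for the 60S. No member was lower in any fit. The number of members higher was 2 with DESeq2 (Rps24, adjusted p = 0.0496, and Rpl27), where 5.61% of genes were higher. It was 2 with length and GC offsets (Rpl27 and Rps2, adjusted p = 0.0438), and 0 with pseudogenes named for their parents or all near-identical copies added. Leaving out each library gave 0 to 5 members higher, 65 to 722 genes higher and 256 to 867 genes lower.

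Whether replicate numbers pair the samples is not known. The deviations of same-numbered libraries from their group means correlated at -0.161, -0.0386 and -0.0138. Such deviations sum to 0 within a group, which ties the correlations to each other, so they cannot settle the pairing. With the replicate block, 28 genes were higher, 151 lower and 0 members higher (Rpl27 0.42, adjusted p = 0.142). With length and GC offsets and the replicate block these counts were 38, 176 and 0.

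Among the members named singly, the fold changes that changed sign were near 0. Rps20 was -0.007 with upper-quartile scaling, -0.002 with the 1 CPM filter, -0.003 on log2(FPKM + 1), -0.074 with length and GC offsets and -0.065 with the block added. Rps28 was -0.003 with upper-quartile scaling, -0.004 on log2(FPKM + 1), and -0.056 and -0.054 with offsets without and with the block. With the same offsets Rpl23a was -0.069 and -0.039, and Rpl23 -0.046 and -0.042. Leaving out each library gave -0.197 to 0.009 for Rps13, -0.131 to 0.22 for Rps20, -0.144 to 0.115 for Rps28, -0.202 to 0.157 for Rpl23a, -0.052 to 0.117 for Rpl23, -0.007 to 0.104 for Rpl3, -0.035 to 0.137 for Rpl27a, -0.004 to 0.096 for Rplp0 and -0.13 to 0.224 for Rpl29. The cause was not tested. Rps6, Rps23 and Rpl23a had 51 to 129 counts per library.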
